A study of Mus musculus with 4 samples.

Results

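The SLC25 family comprises nuclear-encoded carriers, most of them in the inner mitochondrial membrane. Its genes were examined in brown adipose tissue (BAT) of transgenic (Tg) mice. In these mice the integrated stress response (ISR) can be switched on with a ligand. Members were taken as all probes of the array, controls left out, whose RefSeq accession maps to a mouse symbol that starts with Slc25a and a number. This gave 56 of 55681 probes, for 47 of the 20145 genes that received a symbol. Family members with other symbols, among them Ucp1, Ucp2 and Ucp3, were not counted as Slc25 genes. The BAT came from 4 male Tg mice of the C57/BL6N strain at 8 weeks of age, all carrying the transgene maP2::Fv2E-PERK. The transgene joins the kinase domain of PERK, one of the kinases that phosphorylate eIF2α, to the dimerization domain Fv2E, under a 5.4 kb promoter fragment of mouse aP2 (Fabp4). Of these mice, 2 were injected intraperitoneally with AP20187 (AP), which dimerizes Fv2E, and 2 with an aqueous vehicle that held 1.75% Tween-20, 4% ethanol and 10% PEG-400, and BAT was taken 12 h later. The labels give the dose of AP as 1 ng/g, whereas the legend of the study gives another dose. The aP2 promoter also works in monocytes and macrophages, so the transgene is not limited to adipocytes. No mice without the transgene were among the arrays, so effects of AP through Fv2E-PERK and effects of AP itself cannot be told apart.

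Carriers of this family share a fold of repeated membrane-spanning modules and mostly exchange one metabolite for another across the inner membrane. They bring ADP and phosphate to the ATP synthase, return ATP to the cytosol, and move carboxylates, amino acids, acylcarnitines, iron and cofactors. In brown adipocytes they feed the oxidation of fatty acids, and Ucp1, which belongs to the same protein family under another symbol, lets protons back into the matrix and so releases the energy as heat. In the ISR, phosphorylated eIF2α lowers general translation while translation of ATF4 increases, and ATF4 drives genes such as Trib3 and Ddit3.

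The promoters of the 3 Slc25 genes with the lowest unadjusted p are shown because these genes carry the differences described further on. Each line gives the 250 bases before the annotated start of the gene, 5' to 3' on the gene's own strand, from RefSeq on GRCm38.p6. Slc25a33 lies at chr4:149774268-149774517 on the minus strand, Slc25a34 at chr4:141623835-141624084 on the minus strand and Slc25a40 at chr5:8422588-8422837 on the plus strand. Capitals mark matches, on either strand, to the 4 motifs TGATGNAA (the composite element read by CHOP and ATF4), TGACGTCA (the cyclic AMP response element), CACGTG (the E-box of the MYC and TFE3 type) and AAGGTCA (the monomer site of ERR-type nuclear receptors).
Slc25a33: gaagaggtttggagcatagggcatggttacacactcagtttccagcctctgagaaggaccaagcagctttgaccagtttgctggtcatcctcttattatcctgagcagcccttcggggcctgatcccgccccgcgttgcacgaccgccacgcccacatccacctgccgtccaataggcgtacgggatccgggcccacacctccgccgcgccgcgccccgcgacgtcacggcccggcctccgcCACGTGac
Slc25a34: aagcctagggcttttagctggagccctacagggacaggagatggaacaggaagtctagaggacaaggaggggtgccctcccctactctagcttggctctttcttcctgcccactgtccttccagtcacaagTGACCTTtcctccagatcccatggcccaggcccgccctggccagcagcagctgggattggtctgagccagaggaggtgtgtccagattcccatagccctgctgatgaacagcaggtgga
Slc25a40: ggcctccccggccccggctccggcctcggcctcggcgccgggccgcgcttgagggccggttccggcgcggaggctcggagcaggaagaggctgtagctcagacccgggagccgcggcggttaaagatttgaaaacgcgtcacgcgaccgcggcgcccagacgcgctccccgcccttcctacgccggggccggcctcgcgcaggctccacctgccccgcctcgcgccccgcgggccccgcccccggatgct
For comparison, Trib3, Ddit3 and Atf4 were looked up in the same way. No match to any of the 4 motifs was returned for Ddit3 or Atf4, and whether both have a window was not recorded. In Trib3 the search marks TGATGNAA, on the opposite strand, at positions 15 to 22 after its start. The 28 bases around that match, on the minus strand at chr2:152344029-152344056, are shown as an example of the element.
Trib3: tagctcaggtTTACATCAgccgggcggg
The search covered 300 bases per promoter, 250 before and 50 after the start, in 46 windows of the 36 Slc25 genes that the promoter table lists. TGATGNAA was in 0 of the 46 Slc25 windows and in 3.97% of all 32851 windows. CACGTG was in 8 windows of 7 genes, namely Slc25a1, Slc25a13, Slc25a14, Slc25a15, Slc25a31, Slc25a33 and Slc25a36, against 7.15% of all windows. The 250 bases before the start held a median of 57.4% G and C in the Slc25 windows and 52.4% in all windows, and the part of base composition in these shares was not tested. TGACGTCA was in 2 windows, those of Slc25a25 and Slc25a36, against 1.79% of all. AAGGTCA was in 1 window, that of Slc25a34, against 4.72% of all. In Slc25a33 the CACGTG sits 8 to 3 bases before the start, and in Slc25a34 the AAGGTCA sits 119 to 113 bases before it. TGATGNAA, TGACGTCA, CACGTG and AAGGTCA overlapped at 0 places in these sequences. A match describes letters in a window and not a bound site, and the motifs were chosen after the results and these sequences had been seen.

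Every mouse had an array of its own, hybridized with Cy3-labeled RNA. Between 46.4% and 49.0% of spots per array were well above background and 0 spots were saturated. Values are log2 processed signals from which the 75th percentile of that array was subtracted, so 1 unit is a factor of 2 and 0 is the 75th percentile. Genes were compared where the vehicle mice, the AP mice or both gave a probe signal well above background throughout the group, which held for 24975 probes, those with a symbol standing for 12792 genes. On the slide, position 1 of the first and second blocks held the vehicle mice while positions 3 and 4 of the first block held the AP mice, so array position and treatment cannot be told apart. With limma p values adjusted by Benjamini-Hochberg over all probes, 0 probes passed 0.05 between AP and vehicle, and the lowest adjusted p was 0.80. Before adjustment 1515 probes, or 6.07%, had a limma p under 0.05. An exact two-sided permutation test with 2 mice against 2 cannot give a p below 0.333, so no single gene can pass it. The intervals given are 95% intervals of limma before adjustment.

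Of 3 ISR genes checked first, 2 were higher in both AP mice than in both vehicle mice (20.1% of all genes). Trib3, a pseudokinase gene downstream of ATF4 and CHOP, was 2.78 and 2.33 in the vehicle mice and 6.26 and 8.01 in the AP mice, a log2 difference of 4.57 (adjusted p = 0.80). Ddit3, which encodes CHOP, was 2.18 and 1.86 with the vehicle and 3.03 and 4.22 with AP (difference 1.61, adjusted p = 0.80). Atf4 was 7.49 and 6.12 with the vehicle and 7.26 and 8.23 with AP, so its groups overlapped (difference 0.94, adjusted p = 0.81). For each of Trib3, Ddit3 and Atf4 the higher AP mouse was AP replicate 2.

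As a family, the Slc25 genes lay on both sides of 0. Of 47 genes, 37 were compared, 19 of them with a log2 difference above 0 and 18 below, and 51.4% of all genes compared were above 0. The split became 13 above and 24 below in the authors' log2 table, where the median of all genes also fell, and 23 and 14 without vehicle replicate 1. The median difference of the Slc25 genes was 0.06, against 0.01 over all genes, and single genes ranged from -0.77 to 2.65. Adjusted p values of Slc25 genes were 0.80 or more, so 0 of 37 passed the threshold of 0.05 in the limma fit, as 0% of all genes did. Before adjustment, 3 Slc25 genes had a limma p under 0.05, all higher with AP (Slc25a34, Slc25a33 and Slc25a40), where 3.78% of all genes were higher and 2.26% lower by the same rule. Both AP mice lay above both vehicle mice in 9 genes (20.1% of all genes) and below both in 5 (17.3% of all genes). A 2-fold higher signal was found in 2 genes (2.74% of all genes) and a 2-fold lower signal in 0 (1.95% of all genes).

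**Figure D1:**
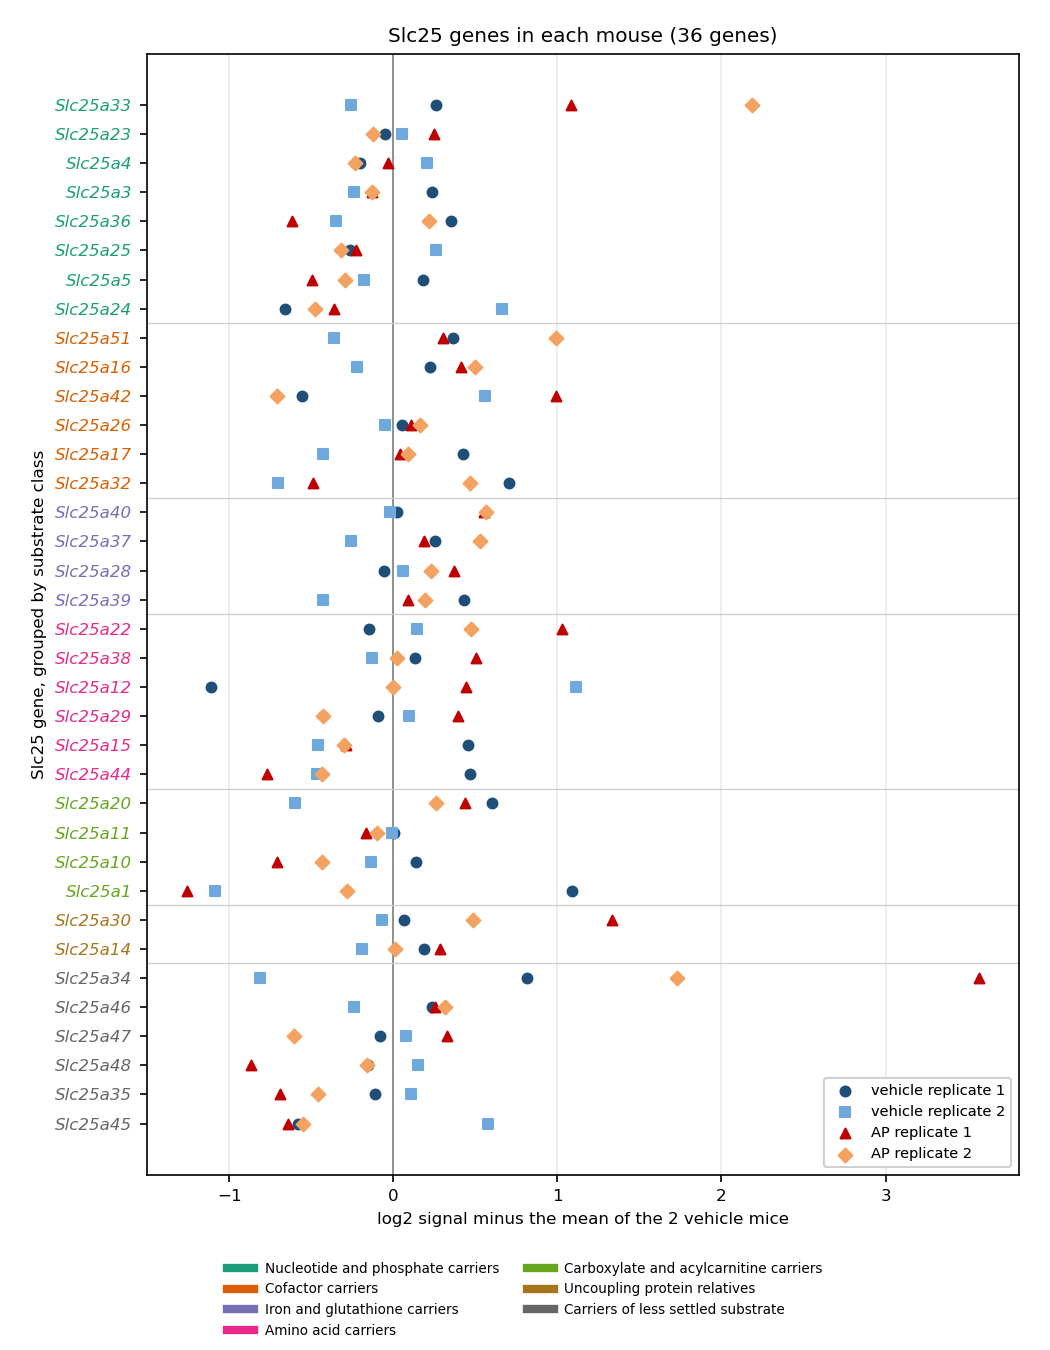
Log2 signal of each Slc25 gene in each mouse minus the mean of the 2 vehicle mice (x axis), for 36 of the genes compared, grouped and colored by substrate class (y axis), with 1 symbol per mouse. Slc25a33 and Slc25a34 are among the 9 genes with both AP mice to the right of both vehicle mice (20.1% of all genes). In 22 of the 36 genes drawn the groups overlap, and 37.4% of all genes compared had groups without overlap.

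Of the genes that carry nucleotides and phosphate, 8 of 10 were compared, 2 above 0 and 6 below, with a median difference of -0.17. Without vehicle replicate 1 the split was 4 and 4, and without vehicle replicate 2 it was also 4 and 4. Slc25a33, a carrier of pyrimidine nucleotides that serves mitochondrial DNA and RNA synthesis, stood apart from the rest. Its log2 signal was 3.29 and 2.77 in the vehicle mice and 4.12 and 5.22 in the AP mice. Both AP mice were thus above both vehicle mice, by 0.83 at the closest. The log2 difference was 1.64 (SE 0.45, 95% interval 0.45 to 2.82), or 3.11-fold (limma, adjusted p = 0.80). A second probe of the gene gave 0.48 and -0.15 with the vehicle and 1.36 and 2.31 with AP, a difference of 1.67 (adjusted p = 0.80), with the mice in the same order. By absolute size of the difference, Slc25a33 held rank 114 of 12792 genes, and rank 68 from the largest rise. The AP mouse that was higher for Slc25a33 was AP replicate 2, as for Trib3 and Ddit3.

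Slc25a36, the other pyrimidine nucleotide carrier, did not share this pattern. It was 0.76 and 0.06 in the vehicle mice and -0.21 and 0.63 in the AP mice, with overlapping groups and a difference of -0.20 (95% interval -1.29 to 0.89). The adenine nucleotide translocases, which swap cytosolic ADP for ATP, were near 0 or slightly below. Slc25a4 was 7.61 and 8.02 with the vehicle and 7.78 and 7.58 with AP (difference -0.13, interval -0.79 to 0.53). Slc25a5 was 6.06 and 5.69 with the vehicle and 5.38 and 5.58 with AP, which is lower in both AP mice by 0.11 at the closest (difference -0.40, interval -1.03 to 0.24, adjusted p = 0.80). The phosphate carrier Slc25a3 was 6.04 and 5.56 with the vehicle and 5.67 in both AP mice (difference -0.13, interval -0.80 to 0.54), and its second probe gave -0.03. Of the calcium-regulated ATP-Mg/phosphate carriers, Slc25a25 was 0.17 and 0.70 with the vehicle and 0.21 and 0.11 with AP (difference -0.28, interval -0.98 to 0.43), and its second probe gave -0.27 with both AP mice below both vehicle mice. The related Slc25a24 and Slc25a23 had differences of -0.42 and 0.06, both with overlapping groups. The intervals of Slc25a3 and Slc25a4 leave room for changes of up to 0.80 on the log2 scale in the downward direction.

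The genes of the cofactor carriers were mostly slightly above 0, with 5 of 7 above and a median of 0.13. Only 2 of 7 were above 0 in the authors' log2 table, with a median of -0.03, and without vehicle replicate 1 the median was 0.49. Slc25a51, which imports NAD into mitochondria, had the largest difference of the class. It was 4.70 and 3.98 in the vehicle mice and 4.64 and 5.33 in the AP mice, so that AP replicate 1 fell between the vehicle mice (difference 0.65, interval -0.37 to 1.67, adjusted p = 0.80). The second probe of the gene read 4.15 and 3.87 with the vehicle and 4.63 and 4.89 with AP. On that probe the groups did not overlap (difference 0.75, interval 0.13 to 1.37, adjusted p = 0.80), so the unadjusted p was under 0.05 for the dimmer of its probes and not for the brighter. Slc25a16 was higher in both AP mice (difference 0.46, adjusted p = 0.80).

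Slc25a42, a carrier of coenzyme A, spread widely in both groups, at 4.30 and 5.41 with the vehicle and 5.84 and 4.15 with AP (difference 0.14, interval -1.72 to 1.998), and the sign turned with the authors' log2 table. Slc25a32, which carries folate or FAD into the matrix, was 2.58 and 1.18 with the vehicle and 1.39 and 2.35 with AP (difference -0.01, interval -1.59 to 1.57), and it was above 0 when arrays were scaled to their medians. For these cofactor genes the mice of 1 group differed by more than the groups did. Slc25a26, the carrier of S-adenosylmethionine, was the one gene whose probes pointed in opposite directions. The brighter probe was 2.56 and 2.46 with the vehicle and 2.62 and 2.67 with AP (difference 0.13, and -0.03 in the authors' log2 table), and the other probe was 2.35 and 2.09 with the vehicle and 1.96 and 2.22 with AP (difference -0.13). Slc25a17, a carrier of the peroxisomal membrane, differed by 0.06 with overlapping groups.

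All 4 genes for iron and glutathione transport were above 0 (51.4% of all genes), with a median difference of 0.33. In 2 of them the groups did not overlap (37.4% of all genes). However, 1 of the 4 was below 0 in the authors' log2 table and without vehicle replicate 2. Slc25a40, linked with its relative Slc25a39 to glutathione import, was -0.93 and -0.97 in the vehicle mice and -0.40 and -0.39 in the AP mice. The mice of each group were nearly identical, and the AP mice were above the vehicle mice by 0.53 at the closest. The difference was 0.56 (SE 0.20, interval 0.03 to 1.08), or 1.47-fold (limma, adjusted p = 0.80). Slc25a39 was 3.44 and 2.58 with the vehicle and 3.10 and 3.20 with AP, so both AP mice fell between the vehicle mice (difference 0.14, interval -0.78 to 1.07, and -0.02 in the authors' log2 table). Of the mitoferrins, which import iron for heme and iron-sulfur clusters, Slc25a28 was 3.11 and 3.23 with the vehicle and 3.54 and 3.40 with AP. The groups of Slc25a28 did not overlap, but its interval held 0 (difference 0.30, interval -0.25 to 0.85, adjusted p = 0.82). Slc25a37, the mitoferrin of erythroid cells, was 1.61 and 1.099 with the vehicle and 1.54 and 1.88 with AP (difference 0.36, interval -0.39 to 1.11), and its second probe gave 0.01.

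Amino acid carriers split evenly, with 3 of 6 above 0 and a median of 0.10. Slc25a22, which carries glutamate with a proton, was 2.10 and 2.39 in the vehicle mice and 3.28 and 2.72 in the AP mice. Both AP mice were above both vehicle mice (difference 0.75, interval -0.01 to 1.51, 1.68-fold, adjusted p = 0.80). Slc25a12, an aspartate-glutamate carrier of the malate-aspartate shuttle, was -1.004 and 1.22 with the vehicle and 0.55 and 0.11 with AP. The vehicle mice thus lay outside the AP mice on either side (difference 0.22, interval -1.84 to 2.28, and -0.01 with normexp background correction). Its relative Slc25a13 was well above background in 1 of 4 mice, vehicle replicate 2, with processed signals of 6.59 and 29.1 with the vehicle and 7.52 and 2.72 with AP, and it was not compared.

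The glycine carrier Slc25a38, which serves heme synthesis, was 2.64 and 2.38 with the vehicle and 3.01 and 2.54 with AP (difference 0.26, interval -0.45 to 0.97). Slc25a44, a carrier of branched-chain amino acids known from brown fat thermogenesis, was 2.25 and 1.32 with the vehicle and 1.02 and 1.35 with AP. The value of AP replicate 2 lay just above that of vehicle replicate 2, so the groups overlapped (difference -0.60, interval -1.61 to 0.41, adjusted p = 0.81). Its second probe was -0.20 and -0.48 with the vehicle and -1.15 and -0.91 with AP, without overlap (difference -0.70, interval -1.31 to -0.08, adjusted p = 0.80). The probes of Slc25a44 match different transcript accessions. The ornithine carrier Slc25a15 was well above background in 3 of 4 mice (difference -0.30), and Slc25a29, a carrier of basic amino acids, differed by -0.02.

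Carriers of carboxylates and acylcarnitines were below 0 in 3 of 4 genes, with a median of -0.35, and in 2 of 4 without vehicle replicate 1. The citrate carrier Slc25a1, which exports citrate for fatty acid synthesis, had the lowest difference of all Slc25 genes but also one of the widest intervals. It was 7.60 and 5.43 in the vehicle mice and 5.26 and 6.23 in the AP mice, so vehicle replicate 1 was high and the other vehicle mouse lay between the AP mice (difference -0.77, interval -2.93 to 1.38, adjusted p = 0.86). Without vehicle replicate 1 the difference was 0.31. The dicarboxylate carrier Slc25a10 was -0.99 and -1.27 with the vehicle and -1.84 and -1.57 with AP, lower in both AP mice (difference -0.57, interval -1.20 to 0.05, adjusted p = 0.80). Slc25a11, the oxoglutarate carrier of the malate-aspartate shuttle, was 6.48 and 6.47 with the vehicle and 6.31 and 6.38 with AP. This is lower in both AP mice, but by 0.09 at the closest (difference -0.13, interval -0.66 to 0.39). Slc25a20, which exchanges acylcarnitines for carnitine in the oxidation of long-chain fatty acids, was 5.13 and 3.93 with the vehicle and 4.96 and 4.79 with AP (difference 0.35, interval -0.84 to 1.54). The low vehicle value came from a spot whose local background was flagged as an outlier, and without that spot, which leaves 1 vehicle mouse, the difference was -0.26.

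The relatives of the uncoupling proteins that were compared were both above 0, but Slc25a14 was below 0 in the authors' log2 table and without vehicle replicate 2. Slc25a30 was -3.14 and -3.27 in the vehicle mice and -1.87 and -2.72 in the AP mice, higher in both AP mice (difference 0.91, interval -0.01 to 1.82, 1.88-fold, adjusted p = 0.80). Its processed signals were low, between 13.5 and 34.8, and with normexp background correction the difference shrank to 0.28. Slc25a14 differed by 0.15 with overlapping groups, and Slc25a27 was well above background in 2 of 4 mice, vehicle replicate 1 and AP replicate 1, and was not compared.

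Among the carriers whose substrates are less settled, 2 of 6 genes were above 0 and the median was -0.33, yet the class held the largest difference of the family. Slc25a34 was 1.61 and -0.02 in the vehicle mice and 4.37 and 2.53 in the AP mice. Both AP mice were above both vehicle mice, by 0.92 at the closest, while each pair of mice also differed strongly within its group. The difference was 2.65 (SE 0.84, interval 0.43 to 4.87), or 6.28-fold (limma, adjusted p = 0.80), which placed the gene at rank 23 of 12792 by absolute size and at rank 16 from the largest rise. Here AP replicate 1 was the higher AP mouse, unlike for Slc25a33, Trib3 and Ddit3. Slc25a35, a close relative of Slc25a34, went the other way. It was 3.51 and 3.73 with the vehicle and 2.93 and 3.16 with AP, lower in both AP mice (difference -0.58, interval -1.17 to 0.02, 0.671-fold, adjusted p = 0.80). Slc25a45 was -2.46 and -1.30 with the vehicle and -2.52 and -2.43 with AP, so its difference of -0.60 (interval -1.74 to 0.55) rested on vehicle replicate 2, and without that mouse it was -0.02. Slc25a46, an outer membrane protein of mitochondrial dynamics, was higher in both AP mice by 0.02 at the closest (difference 0.29), and Slc25a48 was lower in both by 0.01 (difference -0.51). Slc25a47 differed by -0.14 with overlapping groups.

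**Figure D2:**
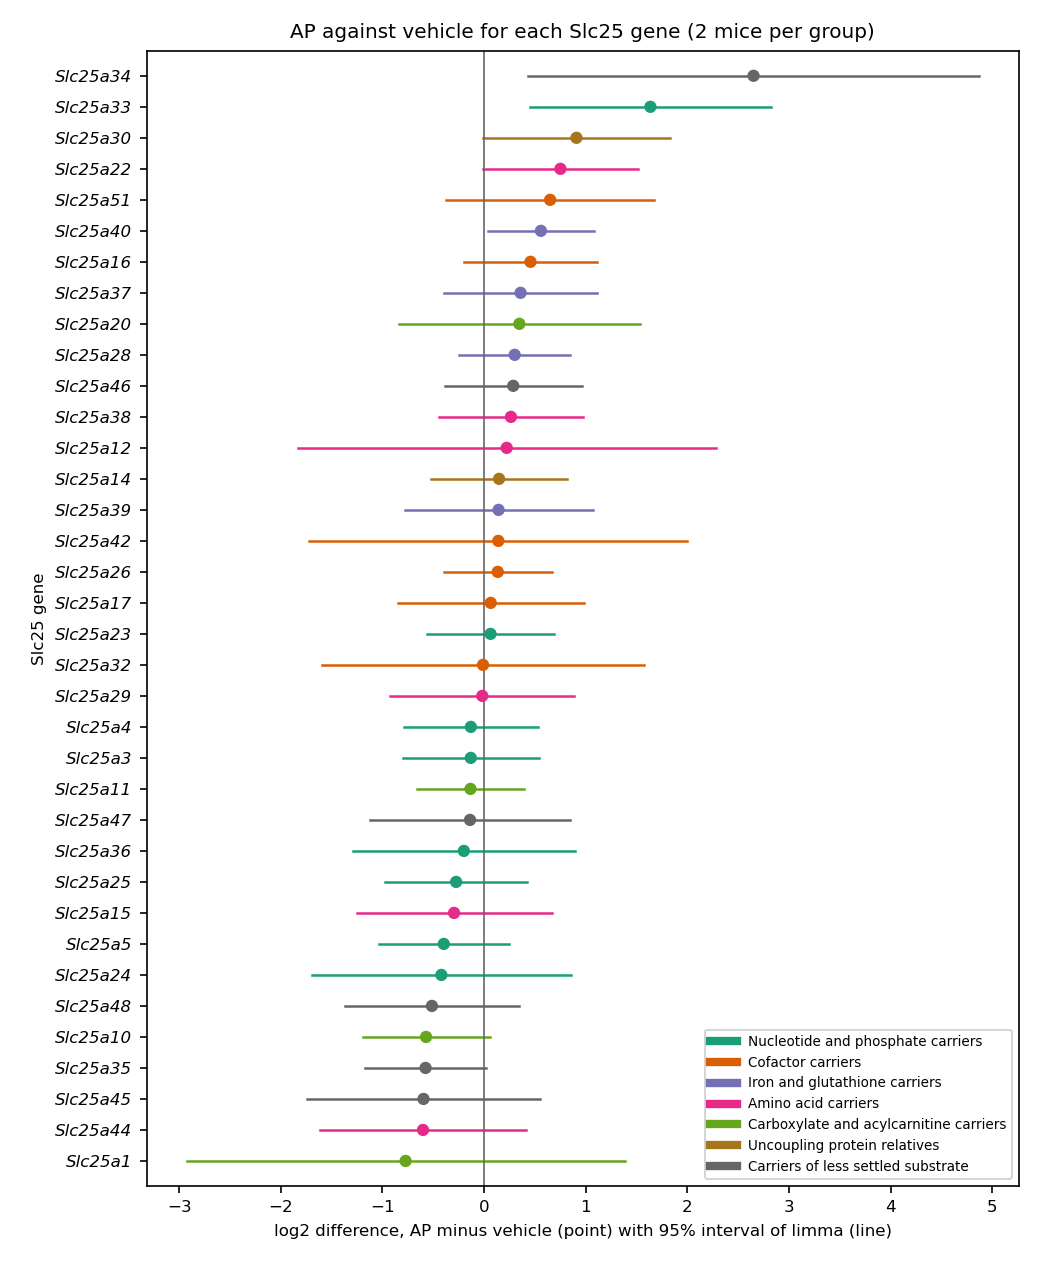
Log2 difference, AP minus vehicle (x axis), with its 95% interval from limma (lines), for 36 of the Slc25 genes compared (y axis), ordered by size and colored by substrate class. The intervals of Slc25a34, Slc25a33 and Slc25a40 lie above 0 before any adjustment, and the other 33 intervals drawn cross 0. Of all genes compared, 3.78% were higher and 2.26% lower at an unadjusted limma p under 0.05.

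Not compared were 10 genes, which were Slc25a2, Slc25a13, Slc25a18, Slc25a21, Slc25a27, Slc25a31, Slc25a41, Slc25a43, Slc25a53 and Slc25a54. Apart from Slc25a13 and Slc25a27, their probes were not well above background in any of the 4 mice, with processed signals from 1.86 to 7.33. Of the 9 genes with a pair of probes, 8 had both probes compared, and 7 of these 8 had differences of the same sign, Slc25a26 being the exception. The probes of Slc25a33, Slc25a25, Slc25a3, Slc25a44 and Slc25a51 differed from each other by at most 0.10, those of Slc25a46 by 0.23 and those of Slc25a37 by 0.35.

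The size of the differences was compared with that of all genes. A difference within 0.25 of 0 was found in 14 Slc25 genes, or 37.8%, against 51.4% of all genes, and the median absolute difference was 0.30 against 0.24. The vehicle mice also differed by more in these genes than in all genes, while the AP mice differed by about as much. The median absolute difference between the vehicle mice was 0.48 in the Slc25 genes and 0.32 over all genes, and that between the AP mice was 0.28 and 0.27. Vehicle replicate 2 was the lowest mouse in 17 of 37 Slc25 genes, while it was lowest in 35.9% of all genes, and vehicle replicate 1 was the highest mouse in 13 of the 37, while it was highest in 28.3% of all genes.

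**Figure D3:**
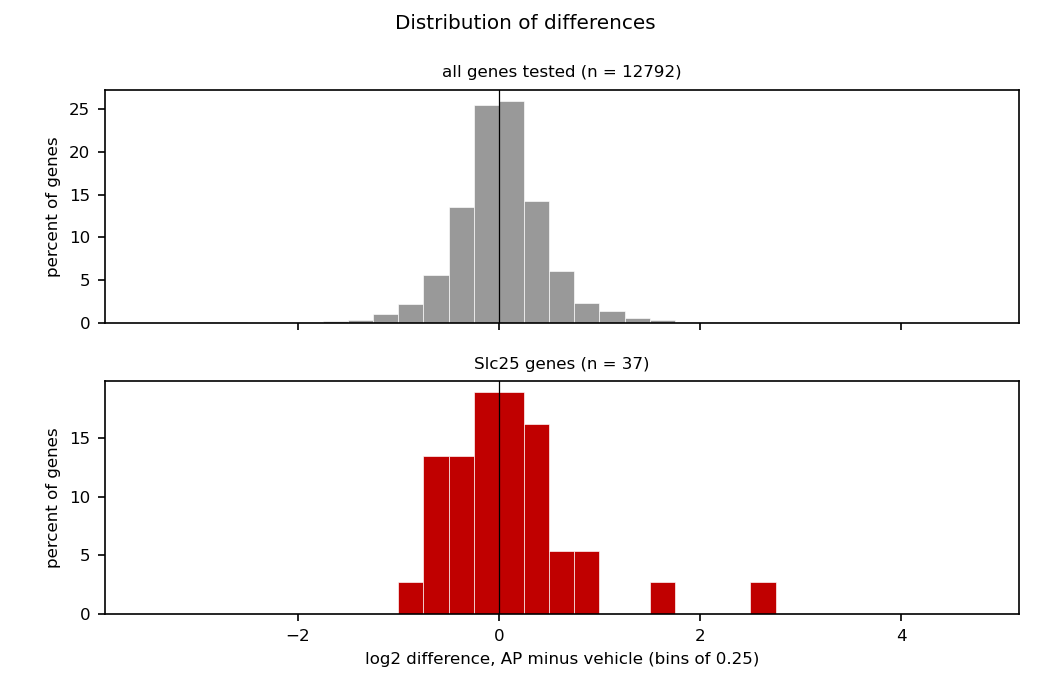
Share of genes (y axis, percent) by log2 difference, AP minus vehicle (x axis, bins of 0.25), for all 12792 genes compared (top) and for the 37 Slc25 genes (bottom). The Slc25 genes lie around 0 like the rest, with Slc25a33 at 1.64 and Slc25a34 at 2.65 standing alone to the right.

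Carrier partner genes were counted from a list of 41. The list held Ucp1, Ucp2, Ucp3, Mtch1 and Mtch2, which belong to the carrier family under other symbols, and other inner membrane transporters. It also held outer membrane channels, the import route of carrier proteins, and Cpt1a, Cpt1b, Cpt2 and Crat, which are enzymes. Of the 41 genes, 40 were compared. Their differences were above 0 in 18 and below 0 in 22, with a median of -0.04 (0.01 over all genes) and a range of -1.06 to 0.58. This split was not stable, with 6 above and 34 below in the authors' log2 table (median -0.20), 10 and 30 without vehicle replicate 2 (median -0.29) and 26 and 14 without vehicle replicate 1 (median 0.09). In the limma fit 0 passed the adjusted threshold and 1 had an unadjusted p under 0.05, the uncoupling protein Ucp2, where 2.26% of all genes were lower by this rule. Ucp2 was 0.31 and 1.31 in the vehicle mice and -0.20 and -0.30 in the AP mice (difference -1.06, interval -2.09 to -0.03, 0.480-fold, adjusted p = 0.80). Leukocytes also express Ucp2, and the lymphocyte and antigen-presenting marker genes of this tissue were highest in the same mouse, vehicle replicate 2, in 6 of 6 genes compared, with a summed log2 signal of 6.61 there and between 4.88 and 5.16 in the other mice. The part of these cells in the value of Ucp2 was not tested. Without vehicle replicate 2 the difference of Ucp2 was -0.56.

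Ucp1, the thermogenic uncoupling protein, was 10.41 and 9.66 with the vehicle and 9.66 and 10.25 with AP (difference -0.08, interval -1.07 to 0.91, and 0.01 when arrays were scaled to their medians). Ucp3 was 1.15 and 1.37 with the vehicle and 1.11 and 0.28 with AP, lower in both AP mice by 0.04 at the closest (difference -0.56, interval -1.49 to 0.36). With a mouse left out this difference ranged from -0.98 without AP replicate 1 to -0.15 without AP replicate 2. The second, dimmer probe of Ucp3 was 0.74 and 0.79 with the vehicle and 1.32 and -0.63 with AP, so its groups overlapped (difference -0.42). The outer membrane channel Vdac1 was 7.55 and 7.40 with the vehicle and 7.55 and 7.70 with AP (difference 0.15, and -0.02 in the authors' log2 table). The subunits of the mitochondrial pyruvate carrier had both AP mice between the vehicle mice. Mpc1 was 9.51 and 8.39 with the vehicle and 8.91 and 9.11 with AP (difference 0.06, and -0.10 in the authors' log2 table and -0.02 with normexp background correction). Mpc2 was 8.34 and 7.03 with the vehicle and 7.69 and 7.82 with AP (difference 0.07, and -0.09 in the authors' log2 table). Of the import route, Timm22, the channel that inserts carriers into the inner membrane, and Timm29, its partner, were lower in both AP mice (differences -0.42 and -0.50, adjusted p = 0.80 each), and Timm10, a chaperone of carriers between the membranes, was higher in both (0.35, adjusted p = 0.80). These 3 genes were chosen after their values were seen.

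Markers of brown adipocytes and of other cell types differed between the mice. The brown adipocyte list of 12 genes held Fabp4, Adipoq and Plin1, which are general adipocyte genes, so its sum is not specific to brown adipocytes. All 12 were well above background, and their summed log2 signal was 13.13 and 12.54 with the vehicle and 12.82 and 13.00 with AP. Of these 12, 7 were above 0 for AP against vehicle (median 0.07), and 3 had groups without overlap (37.4% of all genes). Adrb3 alone had an unadjusted limma p under 0.05, lower with AP (difference -1.20, adjusted p = 0.80), as 2.26% of all genes did. Single markers varied within groups, with Elovl3 at 6.08 and -1.07 with the vehicle and Dio2 at -1.78 and 3.33 with AP. The sum of 14 skeletal muscle markers was 6.06 and 10.23 with the vehicle and 9.56 and 8.71 with AP, lowest in vehicle replicate 1, and all 14 were highest in vehicle replicate 2. All 14 were above 0 for AP against vehicle, with a median of 0.90 and 0 at an unadjusted limma p under 0.05. Macrophage markers summed to 5.35 and 5.82 with the vehicle and 5.12 and 4.98 with AP, and 7 of 9 were highest in vehicle replicate 2. Of these 9, 0 were above 0 for AP against vehicle (median -0.45), and of the 6 lymphocyte and antigen-presenting markers compared also 0 (median -0.49). Itgam alone of these macrophage markers had an unadjusted limma p under 0.05, lower with AP (difference -0.88, adjusted p = 0.80), as 2.26% of all genes did. White adipocyte markers summed to 5.62 and 5.96 with the vehicle and 5.11 and 5.30 with AP, from 6 of 9 genes, and Hoxc8, Hoxc9 and Hoxc10 were not well above background in any mouse. Of these 6, 1 was above 0 for AP against vehicle, the median was -1.21 and 3 had groups without overlap (37.4% of all genes). Lep alone of the 6 had an unadjusted limma p under 0.05, lower with AP (difference -1.38, adjusted p = 0.80), as 2.26% of all genes did. Erythroid markers summed to 9.01 and 8.38 with the vehicle and 7.98 and 8.51 with AP. In bulk tissue, fewer cells of a type and less RNA per cell cannot be told apart.

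Slc25 genes were set beside the muscle markers because muscle also expresses several carriers. The order of the 4 mice in Slc25a12 and Slc25a24 was that of the muscle sum, with vehicle replicate 1 lowest and vehicle replicate 2 highest, and with 2 of 37 Slc25 genes against 4.77% of all genes this order was about as frequent in the family as elsewhere. The part of muscle in the values of Slc25a12 and Slc25a24 was not tested. Slc25a34 and Slc25a33 were lowest in vehicle replicate 2, the mouse with the highest muscle sum. The muscle sum was also higher in both AP mice than in vehicle replicate 1, and without vehicle replicate 2 the difference of Slc25a12 was 1.33, that of Slc25a34 was 1.84 and that of Slc25a33 was 1.38.

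**Figure D4:**
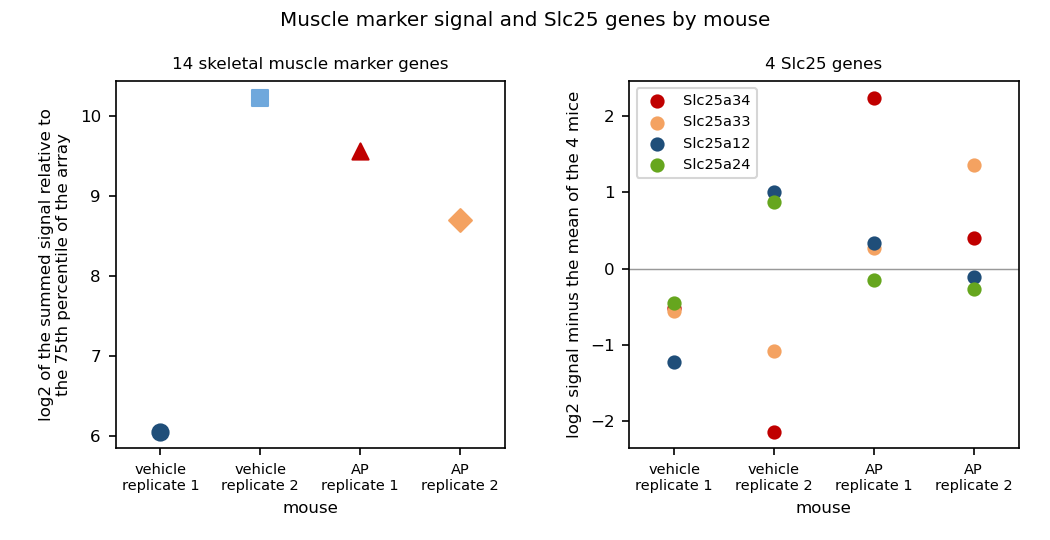
Left, log2 of the summed signal of 14 skeletal muscle marker genes, scaled to each array's 75th percentile (y axis), in each mouse (x axis). Right, log2 signal of 4 Slc25 genes minus the mean of the 4 mice. Slc25a12 and Slc25a24 are lowest in vehicle replicate 1 and highest in vehicle replicate 2, like the muscle sum and 4.77% of all genes, and Slc25a34 and Slc25a33 are lowest in vehicle replicate 2.

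The differences were also computed with each mouse left out in turn. Slc25a40 stayed between 0.54 and 0.58, Slc25a33 between 1.09 and 2.19, Slc25a34 between 1.73 and 3.57, and Slc25a22 between 0.47 and 1.03. In each of these genes both AP mice lay above both vehicle mice, so the sign could not turn and only the size could change. Slc25a33 had a limma p under 0.05 before adjustment in 3 of these 4 fits, Slc25a34 in 2 and Slc25a40 in 0. The number of Slc25 genes with such a p was 5 without vehicle replicate 1, 3 higher and 2 lower, where 9.64% of all genes had one. It was 4 without vehicle replicate 2, 1 higher and 3 lower (5.57% of all genes). Without AP replicate 1 it was 1, higher (3.59% of all genes), and without AP replicate 2 it was 4, all higher (6.10% of all genes). Slc25a1 turned from -0.77 to 0.31 without vehicle replicate 1.

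**Figure D5:**
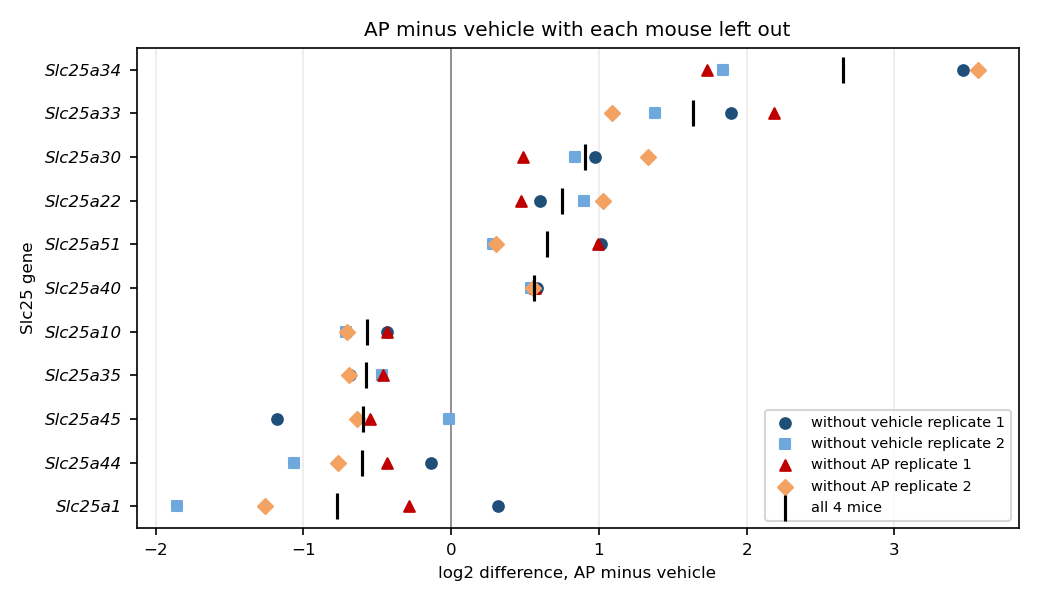
Log2 difference, AP minus vehicle (x axis), of 11 Slc25 genes (y axis) with all 4 mice (black bar) and with each mouse left out (symbols). Slc25a40 stays between 0.54 and 0.58, and Slc25a1 crosses 0 without vehicle replicate 1. Slc25a40, Slc25a34 and Slc25a33 have both AP mice above both vehicle mice, so leaving out a mouse cannot bring them below 0.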

How the data were processed

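RNA of BAT from 4 Tg mice was hybridized to SurePrint G3 Mouse arrays, 1 array per mouse. Feature Extraction 10.7.1.1 gave the background-subtracted intensity of each spot, which the authors deposited without scaling the arrays to each other. Processed log2 values of the same arrays were deposited as well, with a normalization that is not stated. In that table, differences between arrays correlated with those of the intensities at r = 0.9985 or more over 29061 probes, and the columns have medians of -0.437 to -0.160, but the value on which its probes are centred is unknown.

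The intensities were put on the log2 scale and the 75th percentile of each array was subtracted, control spots and feature outlier spots being dropped and repeat spots of a probe averaged. Symbols came from the RefSeq table of GRCm38.p6, used for names since the array design names another build, and 26582 of 55681 probes received one. The table holds 48 Slc25a symbols, 47 of them protein coding, and these 47 have probes. Probes well above background throughout the vehicle group, the AP group or both were compared in R 4.3.3 with limma 3.58.1 (lmFit, then eBayes), tested on simulated data first, and p values were adjusted by Benjamini-Hochberg over all probes. A gene was represented by the compared probe with the highest mean signal. The limma p values rest on the spread between 2 mice per group, which eBayes draws toward a spread shared by all probes compared. For Slc25a40 the SDs within the vehicle and AP groups were 0.03 and 0.01, while the SE of its difference was 0.20. Precision is limited by the number of arrays.

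Members, gene lists, marker lists and tests were chosen with earlier results of these data known. Named are genes with an unadjusted p under 0.05, the 10 largest differences, carriers with a known role in brown fat or stress pathways, genes whose probes disagree in direction, Ucp1, Ucp2, Ucp3, Vdac1, Mpc1, Mpc2, and Trib3, Ddit3 and Atf4. The other members are given by their difference, except 1 gene that is counted in the totals but not reported here. Slc25a52, Cd68, Ighm and Hbb-b1 had no probe with that symbol. Alternatives were normexp background correction (offset 50, planned on the mean and run on the median spot signal), the authors' log2 table, quantile or median scaling of the arrays, dim probes kept or required to be above background in all 4 mice, eBayes with a trend, a block on the replicate number, 1 mouse left out at a time, the mean over the probes of a gene, and the methods' t-test. Chosen after seeing the data were leaving out spots with a background outlier flag and a block with crossed numbers. A block for slide and scan was planned and not run, since all 4 arrays shared 1 slide and 1 scan.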

Additional observations from a re-analysis of the deposited data

How the results depend on the processing

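Across 16 alternatives, 0 Slc25 genes passed the adjusted threshold, and 21 of the 35 named genes compared kept their direction in each of them. The number of Slc25 genes with an unadjusted p under 0.05, which was 3, became 5 with normexp (3 higher and 2 lower, against 7.62% of all genes), 5 with the median of each array (all higher, 6.07%), 6 when all 4 mice had to be above background (5 higher and 1 lower, 6.12%) and 1 with the methods' t-test (Slc25a40, 5.80%, and 0 after Benjamini-Hochberg), and it ranged from 1 to 5 with a mouse left out. The variance trend gave 3 higher and 1 lower (6.68%), and 2 higher and 2 lower came from the authors' log2 table (6.61%). Slc25a33 was under 0.05 in 14 of 16 alternatives, Slc25a34 in 13 and Slc25a40 in 7. For the 40 carrier partner genes the count, which was 1, became 2 with normexp (7.62% of all genes), 2 with the methods' t-test (5.80%), 2 from the values of the authors' log2 table (6.61%), 0 when dim probes were kept (4.99%) and 0 with the replicate block (4.93%), and it ranged from 0 to 3 with a mouse left out (3.59% to 9.64%). The causes of these changes were not tested. Not every alternative could turn a direction. The variance trend, the blocks on the replicate number and the methods' t-test kept the differences of the main fit and changed only the p values. Keeping or dropping dim probes changed a difference only where another probe then stood for the gene. Leaving out a mouse could not turn the sign of a gene whose groups did not overlap.

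The authors' log2 table moved the median of all genes from 0.01 to -0.15, and that of the Slc25 genes from 0.06 to -0.10, so relative to all genes the Slc25 median was 0.05 in both. Among the named genes, signs turned in the authors' log2 table for Slc25a39 (-0.020), Slc25a42 (-0.022), Slc25a26 (-0.028), Vdac1 (-0.016), Mpc1 (-0.099) and Mpc2 (-0.085), with normexp for Slc25a12 (-0.0078) and Mpc1 (-0.020), with the median of each array for Slc25a32 (0.074) and Ucp1 (0.0051), and without background outlier spots for Slc25a20 (-0.26). With a mouse left out, the lowest and highest differences had opposite signs for Slc25a1 (-1.86 to 0.31), Slc25a3 (-0.37 to 0.11), Slc25a4 (-0.34 to 0.074), Slc25a12 (-0.89 to 1.33), Slc25a20 (-0.26 to 0.95), Slc25a32 (-0.71 to 0.69), Slc25a36 (-0.62 to 0.22), Slc25a39 (-0.29 to 0.57), Slc25a42 (-0.71 to 0.99), Ucp1 (-0.46 to 0.30), Mpc1 (-0.50 to 0.62) and Mpc2 (-0.58 to 0.73). The median of the Slc25 genes ranged from -0.01 to 0.16 with a mouse left out. Where a mouse was left out, the lone mouse of its group was assumed to vary like the others.

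No label says that equal replicate numbers mark a shared litter, cage or day, and same-numbered mice deviated with a correlation of -0.13. With the replicate number as a block 3 Slc25 genes had an unadjusted p under 0.05 (4.93% of all genes), with Slc25a30 in place of Slc25a40, and with the numbers crossed 4 (6.39%), with 0 after adjustment in both.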
